A study of Mus musculus with 6 samples.

Results

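Hematopoietic stem cells (HSCs) called in S or G2M phase were compared with HSCs called G1 from the same bone marrow libraries of PBS-injected control mice. The cells were those that the authors' table of single cells places in class HSC and in clusters 0, 1 or 2. They numbered 2471, out of 2587 HSC-class cells and 12170 cells of any class in the 3 PBS libraries, and out of 16822 cells in the whole table. The cycling side was made of 329 S and 22 G2M cells, 351 in all, and the other side of 2120 G1 cells. PBS library 1 gave 198 cycling and 1141 G1 cells, PBS library 2 gave 24 and 191, and PBS library 3 gave 129 and 788.

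Single-cell expression was measured in the series in 6 libraries, 3 from PBS-injected mice and 3 from mice given 1000000 C1498 cells, a mouse acute myeloid leukemia (AML) line. All recipients were unconditioned female C57BL/6J mice with the CD45.1 allele, aged 8 to 12 weeks, and bone marrow was taken at day 21. Cells were sorted as CD45.1+ Lin- cKit+ Sca1+ (LSK), a gate that holds stem cells and multipotent progenitors (MPPs), and no other allele or agent was named for the PBS group. The labels do not say whether a library came from 1 mouse or from a pool, so the p-values measure the spread between 3 libraries.

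In adult bone marrow most HSCs rest outside the cell cycle, and their rare divisions maintain the pool. A cell that enters the cycle passes a restriction point when cyclin D kinases inactivate the retinoblastoma protein and release E2F transcription factors. E2F targets then supply the machinery of DNA replication, and a later wave of genes supplies the mitotic spindle. A G1 call in this table means only that neither the S nor the G2M score was above 0, so it does not separate resting (G0) cells from cells that progress through G1.

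The authors assigned classes by module scores whose genes are not known here, so the level of HSC markers describes the class and is no independent check of its label. Of 18 HSC markers, 17 were highest in the HSC class in each of the 3 PBS libraries, the exception being Gata2. Summed over the 18, the level was 1816 ± 80.6 CPM (UMI counts scaled to 1000000 per sum, mean ± s.d., n = 3 libraries) in the HSC class, against 732 ± 23.9 in MPP2, 790 ± 99.0 in MPP3 and 823 ± 35.2 in MPP4. Within the HSC class the same sum was 1225 to 1280 CPM in cycling cells and 1853 to 2018 CPM in G1 cells, so that the sides did not overlap and both stood above every MPP class. No barcode was shared between libraries among these cells.

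The sides also differed in measures that move with gene levels. Median UMIs per cell were 1.51, 1.60 and 1.56 times higher in cycling than in G1 cells of PBS libraries 1, 2 and 3, while genes per cell at 2000 UMIs differed by ratios of 0.990, 1.04 and 1.02. The median share of mitochondrial UMIs was lower in cycling cells of each library, at 0.948 against 1.01%, 1.21 against 1.46% and 1.19 against 1.35%. Median HSC module scores, the authors' score for membership of the class, differed by -0.0193, -0.0162 and -0.0161 (cycling minus G1). Median doublet scores (Scrublet), a measure of how much a cell resembles a mixture of cells, were higher in cycling cells, at 0.0997 against 0.0710, 0.0614 against 0.0532 and 0.0963 against 0.0673, and without the top 5% of these scores 1611 genes were called in place of the 1693 given below. The HSC score lay within 0.05 of that of the next class in 62.7% of cycling and 46.2% of G1 cells, and 191 of the 2471 cells lay within 0.05 of the phase threshold. The last cell inside the cycling side had a score of 0.000927 and the last G1 cell one of -0.000138.

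Markers of other cell types were summed on both sides, and their part in the results was not tested. Neutrophil markers summed to 0 to 7.19 CPM in cycling and 4.11 to 8.65 in G1 cells, with 5 and 2 of 10 markers at 0. Mast cell and basophil markers summed to 7.19 to 11.0 and 2.15 to 5.24 CPM, with 5 and 3 of 8 at 0. Monocyte and macrophage markers summed to 16 to 57.5 and 18.7 to 41.1 CPM, with 4 and 1 of 11 at 0. B and plasma cell markers summed to 101 to 404 and 104 to 247 CPM, with 4 of 10 at 0 on each side, Pax5 and Ms4a1 on both. The 404 CPM were those of cycling cells in PBS library 3, close to the sum of MPP2 markers there (413 CPM), and Igkc, an immunoglobulin light chain gene on that list, was at 104.5, 60.8 and 329.9 normalised CPM in cycling and 141, 60.9 and 155 in G1 cells of PBS libraries 1, 2 and 3 and was not called in the main fit. Igkc was called higher in cycling cells in 6 of 21 alternative settings, among them those without PBS library 1 and without PBS library 2. Its log2 fold change ran from -0.49 to 0.94 over the alternatives. The sum of B and plasma cell markers was lower in cycling cells of PBS libraries 1 (180 against 247 CPM) and 2 (101 against 104 CPM). T and NK markers summed to 86.3 to 141 and 51.6 to 92.4 CPM, with Cd3e at 0 on both sides and Nkg7, the 1 marker tested, called higher in cycling cells (0.73 ± 0.13 on the log2 scale). Its call was lost without cells near the class boundary (0.37), with G1 cells matched on HSC score (0.34), in cluster 1 alone (0.42) and without the library block (0.76). Stromal and endothelial markers summed to 10.8 to 30.2 and 27.3 to 48.1 CPM, with Cdh5 at 0 on both sides. Pecam1, the 1 stromal or endothelial marker tested, was called lower in cycling cells (-0.68 ± 0.23), a call lost without PBS library 1 (-0.51) or 2 (-0.61).

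Among cells of clusters 0 to 2, to which all class shares here are limited, the share called S or G2M was lowest in the HSC class. Of the HSC-class cells, 14.8% of cells were called S or G2M in PBS library 1 (exact Clopper-Pearson 95% interval 12.9 to 16.8%), 11.2% in PBS library 2 (7.28 to 16.2%) and 14.1% in PBS library 3 (11.9 to 16.5%). The intervals cover counting error only, and those of the 3 libraries overlap. The share was 26.6, 22.6 and 22.4% in MPP4, 41.2, 46.7 and 39.3% in MPP3, and 84.4, 89.9 and 82.8% in MPP2, so that HSC stood below each MPP class in every library by these phase calls, with 15 MPP3 cells in PBS library 2. Cycling HSCs were nearly all in S phase: the G2M share of cycling cells was 8.08, 4.17 and 3.88% in HSC, 14.6, 0 and 17.5% in MPP3, 26.7, 16.3 and 22.3% in MPP4 and 59.0, 55.2 and 56.2% in MPP2, and the 0 of MPP3 in PBS library 2 rests on 7 cycling cells. Class and phase were both called from expression, so these shares depend on the class call too. Among HSC-class cells the median MPP2 module score was higher in cycling than in G1 cells, by 0.0141, 0.0328 and 0.0102 in PBS libraries 1, 2 and 3. Whether cycling cells were placed in other classes for that reason was not tested. Inside the HSC class the cycling share was 15.5, 13.4 and 15.1% for cluster 0. Cluster 1 had 13.7, 4.65 and 11.7% and cluster 2 had 6.45, 0 and 6.82%, where the 0 of PBS library 2 rests on 8 cells (exact interval up to 36.9%).

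**Figure D1:**
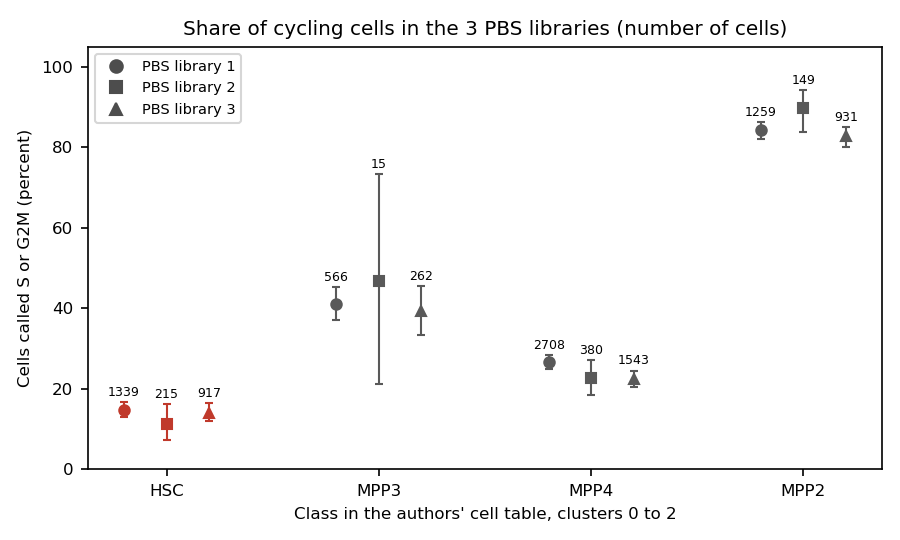
Percent of cells called S or G2M (vertical axis) in each class, cells of clusters 0 to 2 only, with 1 symbol per PBS library, exact 95% intervals and the number of cells above each symbol. HSC, in red, lies between 11.2 and 14.8% and below every other class, and MPP2 lies between 82.8 and 89.9%.

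Of the genes described below, some share short words in their promoters, and these stretches are shown so that the cycling and the interferon-stimulated genes can be seen side by side. Each is 80 bases of a RefSeq promoter (build GRCm38.p6), written 5′ to 3′ on the strand of the gene. Cenpm and Tfdp1 are shown for an E2F word (TTTGGCGC, TTTCGCGC, TTTCCCGC or TTTGCCGC on either strand), Pclaf for CCAAT, the word bound by NF-Y, and Isg15, Ifit1 and Gbp7 for the interferon response word (GAAA, any 2 bases, GAAA). Capitals mark the matches, which overlap one another in Isg15.
Cenpm, chr15:82244364-82244443, minus strand: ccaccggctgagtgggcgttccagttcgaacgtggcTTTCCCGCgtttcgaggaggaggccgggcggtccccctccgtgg
Tfdp1, chr8:13338671-13338750, plus strand: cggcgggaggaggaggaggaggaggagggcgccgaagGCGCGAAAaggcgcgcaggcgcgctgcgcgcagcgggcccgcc
Pclaf, chr9:65890243-65890322, plus strand: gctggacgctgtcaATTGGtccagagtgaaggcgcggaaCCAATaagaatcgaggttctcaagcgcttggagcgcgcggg
Isg15, chr4:156200840-156200919, minus strand: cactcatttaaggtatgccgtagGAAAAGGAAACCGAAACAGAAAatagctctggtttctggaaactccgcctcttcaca
Ifit1, chr19:34640769-34640848, plus strand: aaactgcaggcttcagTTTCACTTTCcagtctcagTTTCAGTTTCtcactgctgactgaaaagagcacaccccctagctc
Gbp7, chr3:142530248-142530327, plus strand: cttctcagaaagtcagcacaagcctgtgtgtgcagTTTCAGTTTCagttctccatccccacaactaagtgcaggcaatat

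Promoters were found for 7057 of the 8788 genes tested (80.3%), and the 250 bases before the first listed start were searched. An E2F word was held by 8.03% of the promoters of genes higher in cycling cells, by 11.2% of those at least 2-fold higher, by 2.10% of those lower, by 3.76% of all tested and by 1.91% of all promoters in the table. CCAAT was held by 42.2% of higher, 50.8% of at least 2-fold higher, 33.7% of lower and 36.2% of all tested genes. Of the largest rises, 9 had a promoter, of which 1, Cenpm, held an E2F word and 5 held CCAAT. Pclaf, Tk1, Lig1 and Mcm3 held no E2F word. Of 24 promoters of the replication list, 2 held an E2F word (8.33%). The interferon response word was held by 9 of 24 promoters of interferon-stimulated genes (37.5%), by 4.38% of genes lower in cycling cells and by 2.68% of all tested. The CHR word of mitotic genes (TTTGAA or TTCGAA) was held by 7 of 24 promoters of spindle genes (29.2%), by 8 of 24 of interferon-stimulated genes (33.3%) and by 12.0% of all tested, so it did not set the spindle genes apart. A word is a description of the letters in this window and not a binding site.

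Expression differed between the sides for many genes. UMIs were summed per library and side, which gave 998045, 278061 and 695436 UMIs for cycling cells and 3698246, 1394029 and 2674177 for G1 cells. Of 8788 genes tested outside the S and G2M lists, 1014 (11.5%) were higher and 679 (7.73%) lower in cycling cells at an adjusted p under 0.05 (edgeR quasi-likelihood test with the library as block). Every count of called list members in this comparison, given below, is to be read beside these shares. In 962 genes (10.9%) every cycling library was above every G1 library, and in 1034 (11.8%) every one was below. The median log2 fold change of all tested genes was -0.04. Scaled by library size alone, the calls split into 845 higher and 851 lower, so that rises made up 49.8% of calls in place of 59.9%. Sums cannot tell fewer expressing cells from less RNA per cell. The genes of the lists from which phase was scored are left out of all counts; 79 of 86 tested were higher, with a median of 1.95 on the log2 scale. Other genes transcribed with them share that selection, so the replication and mitosis lists below describe the cells chosen and are not independent evidence that they cycle.

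The number of calls depended on the test. DESeq2 called 634 genes, the same sums without the library block gave 397, cells thinned to 2000 UMIs gave 704, and leaving out PBS library 1 gave 856 in place of 1693.

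**Figure D2:**
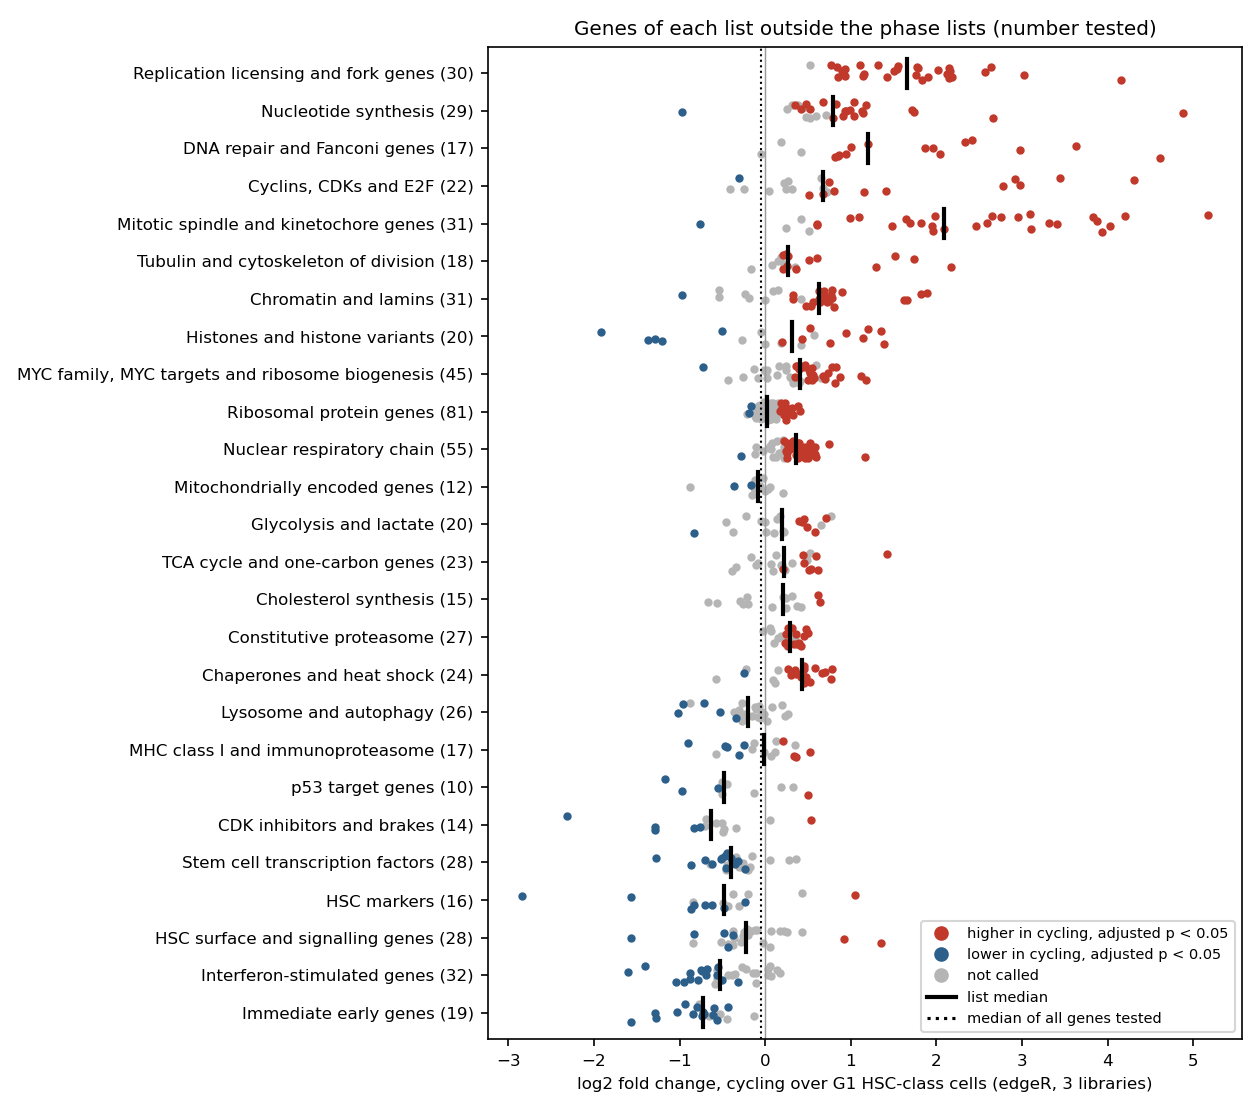
Log2 fold change of cycling over G1 HSC-class cells (horizontal axis, edgeR, 3 libraries) for the tested genes of 26 lists, with 1 point per gene, red for higher and blue for lower at adjusted p under 0.05, grey for not called, a bar for the list median and a dotted line for the median of all genes tested. Replication genes centre on 1.66 and spindle genes on 2.09, while stem cell transcription factors centre on -0.39 and immediate early genes on -0.73.

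Replication genes rose nearly without exception. Of 30 tested members of the licensing and fork list outside the phase lists, 29 were higher and 0 lower, with a median log2 fold change of 1.66 (1.15 to 1.86 over 21 alternative settings). Pclaf, which encodes a factor bound to the sliding clamp PCNA, was at 299, 228 and 347 normalised CPM in cycling cells of PBS libraries 1, 2 and 3 and at 11.4, 0.742 and 9.47 in G1 cells. Its log2 fold change was 5.08 ± 0.17 (SE, adjusted p = 4.3e-29), the largest of the genes named by rule. Lig1, the ligase that joins Okazaki fragments, was at 246, 194 and 253 CPM in cycling and 43.2, 23.8 and 45.4 in G1 cells (log2 fold change 2.57 ± 0.12, adjusted p = 1.1e-22). Neither gene overlapped between sides. Mcm3, a subunit of the replicative helicase, was at 134, 198 and 118 against 32.5, 33.4 and 28 CPM (log2 fold change 2.16 ± 0.15). Orc6 of the origin recognition complex changed by 1.55 ± 0.13 and Rfc5 of the clamp loader by 1.83 ± 0.17 on the same scale, again without overlap.

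Of 29 tested genes of nucleotide synthesis 20 were higher and 1 lower, with a median of 0.80 (10 to 22 higher over the alternatives). Tk1, the thymidine kinase of the salvage pathway, was at 150.4, 144 and 130.4 CPM in cycling cells and 5.46, 1.48 and 5.53 in G1 cells (log2 fold change 4.88 ± 0.21, adjusted p = 3.5e-24). Dut, which removes dUTP, was at 439, 566 and 411 against 136, 109 and 154 CPM (1.73 ± 0.10). Both separated the sides in every library. Dctpp1, a dCTP pyrophosphatase, changed by 1.13 ± 0.09. The 1 lower member was Rrm2b, the p53-induced subunit of ribonucleotide reductase (-0.97 ± 0.29, adjusted p = 0.014), and its call was lost without PBS library 1 (-1.05) or without PBS library 2 (-0.79).

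DNA repair genes rose in 14 of 17 tested members and fell in 0, with a median of 1.20. Over the alternatives 0 to 18 were higher, with a median of 0.41 to 1.78, the lowest of each in cluster 1 alone, where 8 were tested. Rad51b, a gene of homologous recombination, was at 115, 91.2 and 130.4 CPM in cycling and 24.3, 37.1 and 29.2 in G1 cells (2.04 ± 0.16, adjusted p = 7.6e-15). Rad18, a ubiquitin ligase of post-replication repair, was at 62.5, 60.8 and 58.3 against 12.2, 8.16 and 13.8 CPM (2.33 ± 0.22). Neither overlapped between sides. Brca1 was at 36.1, 34.2 and 21.5 against 1.99, 0 and 4.34 CPM (3.63 ± 0.42), with 0 UMIs in the G1 sum of PBS library 2, and the glycosylase gene Neil3 at 24.4, 26.6 and 19.9 against 0.993, 0.742 and 0.790 CPM (4.61 ± 0.50).

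Of 22 tested cyclins, cyclin-dependent kinases (CDKs) and E2F genes, 11 were higher and 1 lower, with a median of 0.67 (3 to 15 higher, medians of 0.09 to 0.80 over the alternatives). E2f1 was at 57.6, 68.4 and 36.8 CPM in cycling and 8.44, 6.68 and 6.71 in G1 cells (2.78 ± 0.26, adjusted p = 2.5e-12), and its dimer partner Tfdp1, whose promoter holds an E2F word, at 112, 152 and 75.2 against 50.1, 43.1 and 24.5 CPM (1.42 ± 0.15). Cdk4, the kinase partner of D cyclins, was at 444, 475 and 342 against 243, 258 and 218 CPM (0.80 ± 0.09). The sides did not overlap in these genes. Ccnd3, a D cyclin, was the 1 lower member at -0.30 ± 0.10 (adjusted p = 0.033), and its call was lost without any 1 library (-0.37, -0.27 and -0.23 without libraries 1, 2 and 3).

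Of 14 tested inhibitors of CDKs and other brakes on proliferation, 5 were lower, 1 was higher and 8 did not pass the test, with a median of -0.63 (0 to 6 lower, medians of -0.77 to -0.06 over the alternatives). Cdkn1c, which encodes p57 and is known for holding HSCs in quiescence, was at 10.7, 15.2 and 4.60 CPM in cycling and 23.3, 46.8 and 11.8 in G1 cells (-1.29 ± 0.33, adjusted p = 0.0028). Cdkn1b, which encodes p27, was at 59.6, 19 and 30.7 against 93.1, 49 and 56.1 CPM (-0.77 ± 0.17, adjusted p = 7.3e-04). In both genes cycling cells were lower in 3 of 3 libraries, although the ranges of the sides overlapped. The antiproliferative genes Btg1 (50.8, 64.6 and 41.4 against 98, 98 and 71.5 CPM, -0.84 ± 0.16) and Tob1 (1.95, 0 and 3.07 against 9.43, 17.1 and 9.47 CPM, -2.31 ± 0.61) did not overlap. Rb1, the retinoblastoma gene, was the 1 higher member (0.54 ± 0.19, adjusted p = 0.038), a call lost without any 1 library (0.53, 0.57 and 0.57) and when scaled by library size alone (0.48). That of Cdkn1c was lost without PBS library 1 (-1.49). With DESeq2, 1 brake was called lower, without the block 2 were, and without PBS library 1 also 2.

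Centromere and spindle genes had the highest list median, at 2.09, with 27 of 31 tested genes higher and 1 lower (9 to 40 higher over the alternatives, which test different numbers of genes). Cenpm, a subunit of the centromere complex, was at 104, 133 and 107 CPM in cycling and 12.4, 16.3 and 15.4 in G1 cells (2.96 ± 0.18, adjusted p = 5.6e-19). Cenpk of the same complex was at 86.9, 122 and 90.5 against 11.2, 11.1 and 22.9 CPM (2.65 ± 0.20), and Spc24, which links kinetochores to microtubules, at 71.3, 103 and 52.2 against 7.20, 2.97 and 7.50 CPM (3.41 ± 0.26). Cenps, a histone-fold protein of centromere and repair complexes, was at 79.1, 76 and 107 against 13.9, 12.6 and 18.6 CPM (2.52 ± 0.19). No side overlapped in these genes, and Nrm, which encodes a protein of the inner nuclear membrane, behaved alike (163, 152 and 141 against 43.9, 38.6 and 39.5 CPM, 1.89 ± 0.13). Pttg1, which encodes securin, the inhibitor of sister chromatid separation, went the other way, at 42, 49.4 and 49.1 against 67.7, 81.6 and 89.2 CPM (-0.76 ± 0.16, adjusted p = 4.3e-04).

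Among tubulin and cytoskeletal genes 12 of 18 were higher and 0 lower, with a median of 0.26 (4 to 12 higher over the alternatives). Stmn1, the microtubule-destabilising protein stathmin, was at 2314, 2785 and 1777 CPM in cycling and 894, 786 and 669 in G1 cells (1.51 ± 0.07, adjusted p = 1.6e-23). Tuba1b was at 462, 919 and 535 against 137, 264 and 171 CPM (1.73 ± 0.08) and Tubb5 at 1505, 1501 and 922 against 600.0, 571 and 412 (1.29 ± 0.07). The sides did not overlap, but tubulin genes are close copies and uncertain one by one.

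Of 31 tested genes of chromatin and the nuclear lamina, 22 were higher and 1 lower, with a median of 0.63 (8 to 22 higher over the alternatives). Dnmt1, the maintenance DNA methyltransferase, was at 113, 91.2 and 123 CPM in cycling and 38.2, 26 and 37.5 in G1 cells (1.65 ± 0.15, adjusted p = 8.1e-13). Ezh2, the catalytic subunit of PRC2, was at 164, 133 and 173 against 58.6, 39.3 and 51.3 CPM (1.62 ± 0.13), and Lmnb1, which encodes lamin B1, at 89.9, 83.6 and 89 against 23.8, 21.5 and 25.3 CPM (1.88 ± 0.17). The sides did not overlap in the 3 genes. The histone H3K4 demethylase gene Kdm5b was the 1 lower member (-0.97 ± 0.18, adjusted p = 4.8e-05), and its call was lost without PBS library 1 (-0.77).

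Of 20 tested histone genes 9 were higher and 5 lower, with a median of 0.31 (3 to 9 higher and 1 to 5 lower over the alternatives). H2afz, which encodes the variant H2A.Z, was the most abundant of the risers, at 2717, 2473 and 2869 CPM in cycling and 1074, 805 and 1283 in G1 cells (1.35 ± 0.07, adjusted p = 3.4e-22). H2afv, its close paralog, was at 840.1, 672 and 898 against 487, 377 and 562 CPM (0.75 ± 0.07), and H2afx, the variant phosphorylated at DNA breaks, at 147, 148 and 59.8 against 56.3, 57.2 and 38.7 CPM (1.20 ± 0.15). These 3 did not overlap between sides. H1f0, the linker histone known to accumulate in resting cells, was at 64.5, 34.2 and 59.8 CPM in cycling and 186, 118 and 116 in G1 cells (-1.37 ± 0.14, adjusted p = 1.2e-10). Hist1h2bc was at 26.4, 19 and 23 against 91.6, 98 and 88.4 CPM (-1.92 ± 0.19, adjusted p = 1.6e-11). Both were lower in every cycling library than in any G1 library. Without PBS library 1, 3 histone genes were called lower in place of 5. H3f3b, 1 of the genes for H3.3, was at 2006, 1725 and 1239.7 against 2684, 2796 and 1695 CPM (-0.51 ± 0.06), lower in 3 of 3 libraries with overlapping ranges. The linker histone gene Hist1h1c was at -1.28 ± 0.29, and at -0.50 with its call lost without PBS library 1. Genes of the histone cluster are near-identical copies, and most replication-dependent histone mRNAs carry no poly(A) tail, a class that poly(A)-primed libraries capture poorly.

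Of 45 tested genes of the MYC and ribosome biogenesis list, 23 were higher and 1 lower, with a median of 0.41 (8 to 25 higher over the alternatives). Ran, the GTPase of nuclear transport, was at 1403, 1273 and 1347 CPM in cycling and 678, 504 and 654 in G1 cells (1.12 ± 0.07, adjusted p = 1.8e-18), and its partner Ranbp1 at 873, 745 and 830.0 against 407, 275 and 383 (1.18 ± 0.08). Nhp2, a protein of the particles that modify ribosomal RNA, changed by 0.82 ± 0.09. The sides did not overlap in these genes. Mycn was the 1 lower member (-0.73 ± 0.21, adjusted p = 0.011; -0.67 and not called without PBS library 1, 0.11 in cluster 1 alone), and Myc itself, chosen for its place in the list's name, was not called, at -0.12.

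Ribosomal protein genes were centred near 0, with 15 of 81 higher, 2 lower and a median of 0.02, beside 11.5% higher and 7.73% lower over all genes tested. Their difference from the ribosome biogenesis list was not tested. Their direction turned on the scaling: with library size alone 14 were higher and 14 lower, with a median of -0.02. Among the higher ones were Rps27l (0.40 ± 0.08), Rps6 (0.31 ± 0.06) and Rps15 (0.30 ± 0.06). The 2 lower ones, Rpl24 (-0.17 ± 0.06) and Rps27 (-0.19 ± 0.07), lost their calls without PBS library 2 (-0.10 and -0.06) or PBS library 3 (-0.14 and -0.21). Ribosomal protein genes have many processed copies and are uncertain one by one.

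Nuclear genes of the respiratory chain were higher in 38 of 55 tested members and lower in 1, with a median of 0.36 (0.21 to 0.39 over the alternatives). Cycs, which encodes cytochrome c, was at 423, 365 and 499 CPM in cycling and 189, 148 and 229.7 in G1 cells (1.17 ± 0.09, adjusted p = 7.5e-16), and Cox5a of complex IV at 706, 566 and 802 against 406, 321 and 513 (0.74 ± 0.07). The sides did not overlap in either. No other called rise was above 0.60, and without the library block 1 gene of the list was called. Uqcrh was the 1 lower member (-0.29 ± 0.07, and -0.24 with its call lost without PBS library 3). Of the 12 mitochondrially encoded genes tested, 0 were higher and 2 lower, with a median of -0.09, 4 positive and 8 negative values. Over all genes tested 11.5% were higher and 7.73% lower, and nothing is read from the count of this small list. Of the called ones, mt-Co1 was at 1552, 2431 and 2421 CPM in cycling and 1968, 3324 and 3007 in G1 cells (-0.36 ± 0.06, adjusted p = 5.4e-06), and mt-Co3 (-0.16 ± 0.06) lost its call without PBS library 2 (-0.13) or PBS library 3 (-0.13). The lower share of mitochondrial UMIs per cycling cell, given above, goes the same way as mt-Co1, which is counted in that share.

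The counts of the next lists are to be read beside 11.5% higher and 7.73% lower over all genes tested. Of 20 glycolysis genes 6 were higher and 1 lower (median 0.19, 1 to 7 higher over the alternatives), led by Tpi1 (414, 406 and 334 CPM in cycling and 239, 264 and 210.4 in G1 cells, 0.71 ± 0.09, adjusted p = 3.4e-09). The glucose transporter gene Slc2a3 was the 1 lower member, lower in 2 of 3 libraries (-0.83 ± 0.19, and -0.82 with its call lost without PBS library 1). Of 23 TCA cycle and one-carbon genes 8 were higher and 0 lower (median 0.22, 1 to 8 higher over the alternatives), with Psat1 of serine synthesis at 1.43 ± 0.27, and 3 were higher without PBS library 1. Of 27 genes of the constitutive proteasome 14 were higher and 0 lower (median 0.29, 0 to 17 higher over the alternatives), and Psmb5, a catalytic subunit, was at 359, 357 and 328 against 233, 243 and 279 CPM (0.47 ± 0.09), although 4 proteasome genes were called without PBS library 1. Of 24 chaperone genes 17 were higher and 1 lower (median 0.43, 2 to 17 higher over the alternatives). Ppia, a prolyl isomerase, was at 4582, 4608 and 5115 against 2877, 3069 and 3614 CPM (0.59 ± 0.06, adjusted p = 1.6e-11), and Hsp90aa1 at 238, 239 and 268 against 143, 161 and 143 (0.77 ± 0.10). Hspa4, the 1 lower member (-0.25 ± 0.09), lost its call without any 1 library (-0.30, -0.17 and -0.23). Of 26 lysosome and autophagy genes 0 were higher and 5 lower, with a median of -0.20 (0 to 8 lower over the alternatives). Sqstm1, which encodes the autophagy receptor p62, was at 25.4, 38 and 18.4 CPM in cycling and 48.9, 65.3 and 46.6 in G1 cells (-1.02 ± 0.21, adjusted p = 2.0e-04), and the cathepsin gene Ctsl at 74.2, 38 and 62.9 against 106, 129 and 95.5 (-0.71 ± 0.15), both without overlap.

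**Figure D3:**
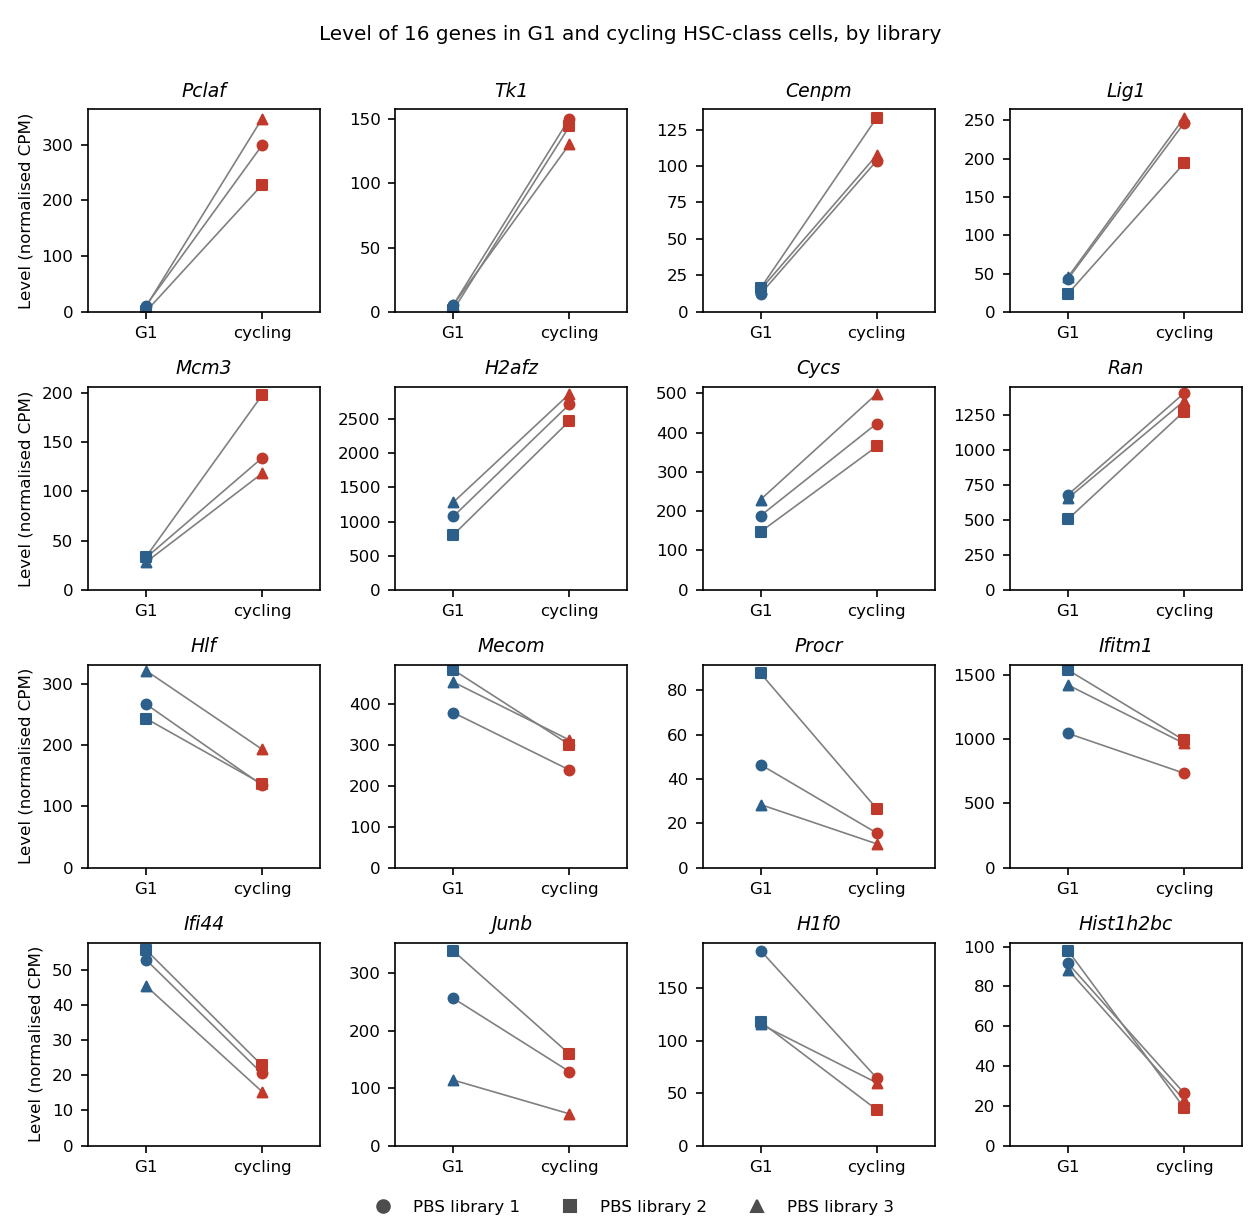
Level of 16 genes (vertical axis, normalised CPM from 0) in G1 and cycling HSC-class cells, with 1 line and 1 symbol shape per PBS library and no averaging. Every line rises from Pclaf to Ran in the upper 8 panels and falls from Hlf to Hist1h2bc in the lower 8, and in Junb the G1 value of PBS library 3 (114) lies below the cycling values of the other two libraries (129 and 160).

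Of 28 tested transcription factors that maintain stem cells, 13 were lower in cycling HSCs, 0 were higher and 15 did not pass the test, with a median of -0.39 and a range of -0.50 to -0.35 over the alternatives. Hlf, a factor specific to stem cells within hematopoiesis, was at 135, 137 and 193 CPM in cycling and 267, 243 and 322 in G1 cells (-0.86 ± 0.10, adjusted p = 2.3e-09). Mecom, which encodes EVI1, was at 238, 300.1 and 311 against 378, 482 and 453 CPM (-0.62 ± 0.09, adjusted p = 1.2e-07). Mllt3, a cofactor of HSC self-renewal, was at 179, 141 and 135 against 278, 223 and 243 CPM (-0.71 ± 0.10). In each of these the highest cycling library lay below the lowest G1 library, as it did for Lmo2 (713, 900.3 and 618 against 979, 1197 and 960.0 CPM, -0.50 ± 0.07). The counts of lower members were 6 with DESeq2, 3 without the block, 6 without PBS library 1 and 9 when G1 cells were matched to cycling cells on HSC score, a setting chosen after the data were seen. Over all alternatives the count ran from 2, in cluster 1 alone, to 17.

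Among the 18 HSC markers, 16 were tested, 8 were lower and 1 higher, with a median of -0.49. The count of lower markers was 6 with DESeq2, 4 without the block and 1 of 6 tested in cluster 1 alone. Procr, which encodes the surface receptor EPCR used to isolate HSCs, was at 15.6, 26.6 and 10.7 CPM in cycling and 46.4, 87.6 and 28.4 in G1 cells (-1.57 ± 0.24, adjusted p = 1.2e-06). Sult1a1, a sulfotransferase gene, was at 3.91, 15.2 and 0 against 35.5, 37.9 and 18.6 CPM (-2.83 ± 0.41). Neither overlapped between sides. Ly6a, which encodes Sca1 and was itself part of the sort, was at 103, 159.6 and 96.7 against 155, 348 and 182 CPM (-0.83 ± 0.12), lower in 3 of 3 libraries with overlap. Ctnnal1 was the 1 higher marker, at 35.2, 30.4 and 29.2 against 16.1, 9.65 and 17.8 CPM (1.05 ± 0.26, and 0.99 with its call lost without PBS library 1). The HSC module score was lower on the same side, and after matching on it 6 of 13 tested markers were lower and 1 higher, with a median of -0.37.

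Of 28 other surface and signalling genes 5 were lower (3 without PBS library 1) and 2 higher, with a median of -0.23, beside 7.73% lower and 11.5% higher over all genes tested, so that nothing is read from these counts for the group. Angpt1, a ligand that HSCs secrete for the receptor Tie2, was at 835, 859 and 976 CPM in cycling and 1142, 1260.4 and 1239.9 in G1 cells (-0.44 ± 0.07, adjusted p = 1.3e-06). Cd48, a surface protein gained when HSCs become MPPs, was at 125, 49.4 and 121 against 44.4, 22.3 and 52.1 CPM (1.35 ± 0.15, adjusted p = 2.3e-10), higher in 3 of 3 libraries although the value of PBS library 2 lay inside the G1 range. Itga2b, which encodes CD41, was at 11.7, 41.8 and 27.6 against 9.18, 8.91 and 16.2 CPM (0.92 ± 0.33), a call lost without PBS library 2 (0.61) or 3 (1.09).

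Of 8 tested myeloid priming genes 3 were higher and 1 lower (median 0.07), of 12 lymphoid genes 2 and 2 (0.07), of 9 megakaryocyte genes 1 and 2 (-0.20) and of 9 erythroid genes 0 and 3 (0.06), of which Hbb-bs and Hba-a1 rested on 1 cell, as given below. These lists are small and stand beside 11.5% higher and 7.73% lower over all genes tested, and nothing is read from their counts. Of the class markers, 2 of 7 MPP2 markers were higher and 0 lower (median -0.14), 2 of 3 MPP3 markers higher and 1 lower (1.30), and 3 of 7 MPP4 markers higher and 1 lower (0.34), with Cd48 counted in each. Only these 3 of 11 MPP3 markers were tested, so their median is the value of Mpo. Summed over the 11, the level was 859, 586 and 880 CPM in cycling and 825, 649 and 949 in G1 cells. The lower one was Prtn3 (-0.20), a call lost without PBS library 2 (-0.15) or 3 (-0.11). Mpo, which encodes myeloperoxidase, was at 25.4, 38 and 47.6 CPM in cycling and 12.4, 9.65 and 18.9 in G1 cells (1.30 ± 0.26, adjusted p = 1.1e-04), without overlap. Ltb, which encodes lymphotoxin beta, was at 63.5, 68.4 and 64.4 against 137, 226 and 137 CPM (-1.22 ± 0.14, adjusted p = 6.1e-10), also without overlap. Ighm, the IgM heavy chain gene, was at 36.1, 26.6 and 110.5 against 23.1, 27.5 and 34.3 CPM (1.08 ± 0.21), higher in 2 of 3 libraries, which rested on PBS library 3: without it the value was 0.50 and not called, and without cells near the class boundary -0.05.

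Immediate early genes, the fast transcriptional response to signals and stress, were lower in cycling cells in 14 of 19 tested members and higher in 0, with a median of -0.73 (-0.84 to -0.63 over the alternatives). Junb was at 129, 159.6 and 55.2 CPM in cycling cells and 257, 339 and 114 in G1 cells (-1.03 ± 0.11, adjusted p = 3.4e-10). Jund was at 599, 444 and 296 against 1012, 834 and 429.9 CPM (-0.73 ± 0.08), and Fos at 434, 186 and 127 against 745, 414 and 186 CPM (-0.79 ± 0.09). The AP-1 genes fell within each library, but their level differed between libraries by more than between sides, with PBS library 3 lowest, so the ranges overlap. Without the block that removes the library level, 1 member was called lower, DESeq2 called 9, and 9 were lower without PBS library 1. Klf2, a factor of quiescence in lymphocytes and 1 of the 10 largest falls, was at 45.9, 30.4 and 16.9 against 160.1, 34.1 and 43.8 CPM (-1.57 ± 0.19), and -0.94 with its call lost without PBS library 1.

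Interferon-stimulated genes were lower in 15 of 32 tested members and higher in 0, with a median of -0.52 (-0.58 to -0.21 over the alternatives, the smallest in cluster 1 alone, where 0 of 20 were called). Ifitm1, a membrane protein that restricts viruses, was at 735, 992 and 967 CPM in cycling and 1044, 1537 and 1421 in G1 cells (-0.56 ± 0.07, adjusted p = 3.4e-09). Ifi44 was at 20.5, 22.8 and 15.3 against 52.9, 55.7 and 45.4 CPM (-1.41 ± 0.22, adjusted p = 2.5e-06), and the regulator gene Irf7 at 55.7, 53.2 and 27.6 against 93.1, 84.6 and 68.7 CPM (-0.87 ± 0.17). The sides did not overlap in these genes. The 3 genes whose promoters are shown above, chosen after their values were seen, were also called: Ifit1 (5.86, 3.80 and 10.7 against 26.6, 21.5 and 15.8 CPM, -1.60 ± 0.37), Isg15 (117, 72.2 and 104 against 146, 127 and 179.6 CPM, -0.55 ± 0.12) and Gbp7 (23.4, 15.2 and 23 against 50.4, 29.7 and 30.8 CPM, -0.87 ± 0.23). DESeq2 called 6 members lower and the fit without the block 2.

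Of 17 tested antigen presentation genes, many of them known to respond to interferon too, 4 were higher, 5 lower and 8 not called, with a median of -0.01. The 4 higher ones belong to the immunoproteasome and its activator: Psme2 (0.52 ± 0.09), Psmb9 (0.36 ± 0.08), Psmb8 (836, 805 and 772 against 651, 606 and 646 CPM, 0.34 ± 0.07) and Psme1 (0.20 ± 0.07). The 5 lower ones are class I heavy chains and their light chain, among them H2-D1 (-0.30 ± 0.08), H2-T23 (-0.45 ± 0.11), H2-T22 (-0.47 ± 0.14) and B2m (1582, 1470.2 and 1427 against 1708, 1816 and 1815 CPM, -0.24 ± 0.06). Calls were lost for Psme1 without PBS library 1 (0.16) or 2 (0.20), H2-D1 without 1 (-0.25) or 2 (-0.26), H2-T23 without 1 (-0.34), H2-T22 without 1 (-0.37) or 3 (-0.38) and B2m without 2 (-0.20) or 3 (-0.17). Without PBS library 1, 1 gene of the list was called lower in place of 5, and without PBS library 2, 2 were. Class I genes are close copies of one another and uncertain one by one.

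The 10 largest falls included single genes outside these lists. The nuclear receptor gene Rora was at 21.5, 26.6 and 32.2 CPM in cycling and 70.5, 74.2 and 69.9 in G1 cells (-1.45 ± 0.20, adjusted p = 8.8e-08) and the zinc finger gene Plag1 at 17.6, 19 and 9.21 against 35.2, 52.7 and 54.9 (-1.56 ± 0.26). Tcp11l2 was at 15.6, 7.60 and 7.67 against 32.8, 61.6 and 35.1 CPM (-1.67 ± 0.28). None of these 3 overlapped between sides, while Gem, a small GTPase gene, did (19.5, 38 and 12.3 against 69.5, 71.3 and 35.9 CPM, -1.56 ± 0.22).

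The 2 largest falls among the genes named by rule rested on 1 cell. Hbb-bs was at 17.6, 3.80 and 30.7 CPM in cycling and 22.6, 18.6 and 634 in G1 cells (-3.40 ± 0.27) and Hba-a1 at 4.88, 0 and 16.9 against 12.7, 2.97 and 241 (-3.38 ± 0.29), with the high value in the G1 side of PBS library 3. In that sum a single cell held 1553 of 1606 Hbb-bs UMIs (96.7%) and 573 of 610 Hba-a1 UMIs (93.9%). Without it the log2 fold changes were -0.11 and -0.54, both no longer called, and without PBS library 3 Hbb-bs was at -0.58, while the count over all genes without that cell was 1664. Hemoglobin genes are near-identical copies.

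Splitting the cycling side by phase separated S from G2M, with the limit that G2M rested on 16, 1 and 5 cells and 141904 UMIs. S against G1 gave 669 higher (9.05%) and 644 lower (8.71%) of 7396 genes, G2M against G1 gave 89 (1.20%) and 147 (1.99%), and G2M against S gave 35 (0.473%) and 49 (0.663%). Without PBS library 1 the calls came to 647, 60 and 31 in place of 1313, 236 and 84, and without PBS library 3 to 595, 86 and 24. Without PBS library 2 they were 148 for G2M against G1 and 47 for G2M against S. With library size alone the last pair split into 66 and 27, and G2M against G1 into 167 and 83. The replication gene Mcm3 rose in S by 2.16 ± 0.17 and was lower in G2M than in S by 1.81 ± 0.50 on the log2 scale (adjusted p = 0.022), and Lig1 likewise (S 2.56 ± 0.14, G2M against S -1.17 ± 0.34, adjusted p = 0.042). Tuba1c, an alpha tubulin gene, was at 62.2, 94.2 and 58.9 CPM in G1, 34.2, 89 and 52.1 in S and 341, 1009 and 183 in G2M sums (G2M against S 3.02 ± 0.31, adjusted p = 4.2e-19). Cdkn3, a phosphatase of CDKs, was higher in G2M than in S by 5.43 ± 0.56 (adjusted p = 3.6e-19). The E2 ubiquitin enzyme gene Ube2s, which works with the anaphase complex, and Arl6ip1 were higher in G2M than in S by 1.56 ± 0.21 and 1.56 ± 0.20.

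Of the genes lower on the cycling side as a whole, Cdkn1b and H1f0 were lower in S alone, while Mecom and Hlf were lower in both phases. Cdkn1b was lower in S than in G1 (-1.11 ± 0.21, adjusted p = 4.9e-06) and at 0.53 ± 0.39 in G2M, with a difference between the phases of 1.64 ± 0.46 (adjusted p = 0.025). H1f0 was lower in S (-1.74 ± 0.18) and at 0.06 ± 0.32 in G2M (G2M against S 1.80 ± 0.39, adjusted p = 7.2e-04). Mecom was lower in S (-0.63 ± 0.11) and lower again in G2M (G2M against S -1.46 ± 0.37, adjusted p = 0.0091). Hlf was lower in both S (-0.89 ± 0.13) and G2M (-1.70 ± 0.36), and the phases did not differ by the test (-0.81 ± 0.41, adjusted p = 0.36). The largest S falls included that of Hist1h2bc at -2.07 ± 0.23, beside the histone demethylase gene Kdm7a at -1.84 ± 0.34.

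Further rises in G2M were those of Lockd, a long noncoding RNA (2.24 ± 0.39 against S), Rdm1 (1.82 ± 0.37) and Trim59 (1.81 ± 0.49), and that of the condensin gene Smc2 (2.37 ± 0.36 against G1). Without PBS library 1 the calls of Rdm1 (1.11) and Trim59 (2.17) against S were lost, and that of Trim59 also without PBS library 3 (1.54). Of the genes lower in G2M than in G1, 23 of 147 had 0 UMIs in all G2M sums, and so did 6 of the 49 lower than in S. At the limit of 21.1 CPM that 3 counts over the 3 G2M sums allow, Mbd5 was at least 2.99-fold lower in G2M than in G1, Rcor1 at least 2.63-fold, Gsdme at least 2.40-fold and Setd3 at least 2.33-fold, and C77080 at least 4.89-fold lower than in S. The calls of these 5 genes were lost without PBS library 3, and those of all but C77080 without PBS library 1.

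A single AML library gave values for the same comparison in mice with leukemia. It held 61 cycling and 453 G1 HSC-class cells, AML library 1 held 9 and 13 and was not used, and no HSC-class cell of AML sample 2 is in the table. With 1 library there is no test. Among the 1693 genes called in the PBS libraries, 1534 (90.6%) had the same sign in AML library 3, against 5983 of all 8788 tested (68.1%). Pearson's r across genes, which are not independent replicates, was 0.54 over all genes tested, 0.82 over the called genes, where rises and falls are pooled, 0.74 over the rises and 0.37 over the falls. Genes higher in the PBS cycling cells had the same sign in 92.6% and genes lower in 87.6%. Pclaf was at 15.3 CPM in G1 and 314 in cycling cells of AML library 3, a log2 difference of 4.24. The median log2 difference was 1.49 for replication genes, -0.38 for stem cell transcription factors and -0.49 for interferon-stimulated genes, in which 15 of the 15 called genes kept their sign. The sign was kept by 12 of 13 called stem cell transcription factors, 12 of 14 immediate early genes and 4 of 6 CDK inhibitors and brakes.

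**Figure D4:**
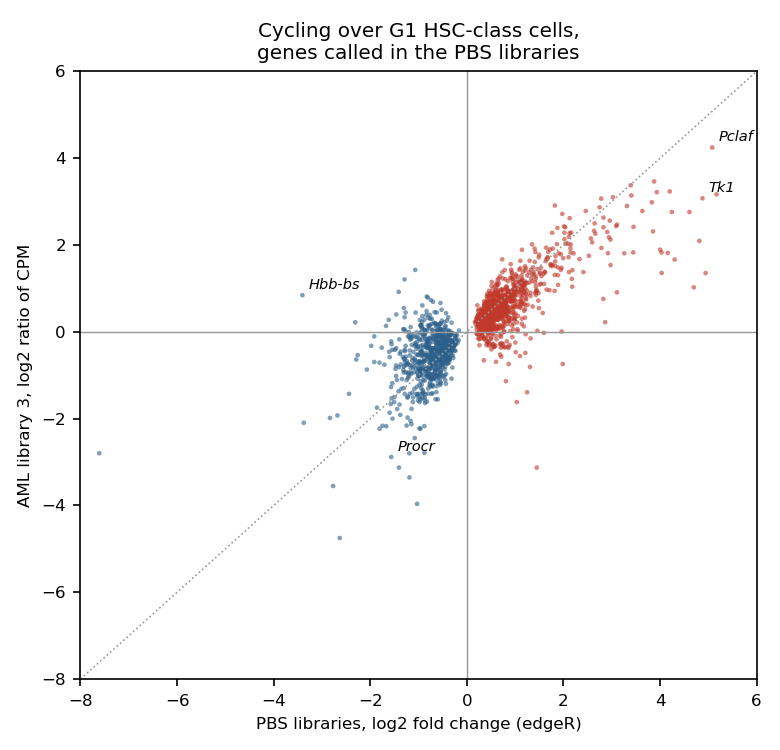
Log2 fold change in the 3 PBS libraries (horizontal axis, edgeR) against the log2 ratio in AML library 3 (vertical axis) for 1693 genes called in the PBS libraries, with red points for genes higher and blue points for genes lower in cycling cells and a dotted line of equal values. Of the points, 1534 lie in the quadrants of equal sign, with Pclaf at 5.08 and 4.24, while Hbb-bs, which rested on 1 cell, has opposite signs.

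Whether the step from G1 into cycle was alike in MPPs was tested by an interaction term in 1 fit of the 4 classes, again with cells of clusters 0 to 2. The cycling difference was other than in HSC for 72 genes upward (0.708%) and 103 downward (1.01%) in MPP2, for 2 (0.0197%) and 2 (0.0197%) in MPP3, and for 19 (0.187%) and 30 (0.295%) in MPP4, of 10172 tested. PBS library 2 gave too few MPP2 and MPP3 cells on a side, so that its sums of those classes were left out, while its HSC and MPP4 sums stayed in the fit. Without PBS library 1 the counts were 71, 1 and 8 in place of 175, 4 and 49, and without PBS library 3 they were 69 for MPP2 and 17 for MPP4. Without PBS library 2, 30 were called for MPP4, and without the library block 0 genes were called in any class (502, 205 and 219 at an unadjusted p under 0.05 by edgeR). The G2M share of cycling cells differs between the classes, as given above, and its part in these differences was not tested. The S phase genes E2f1 and Mcm3 rose by 2.78 ± 0.25 and 2.15 ± 0.14 in HSC and by 0.24 ± 0.25 and 0.53 ± 0.18 in MPP2, a difference past the threshold for both. H1f0 fell by 1.37 ± 0.14 on the log2 scale in HSC and was at 0.08 ± 0.14 in MPP2, again different by the test. For this comparison E2f1, Mcm3 and H1f0 were chosen after their values were seen. For Hlf, Mecom, Junb and Ifi44, named above as lower in cycling HSCs, no interaction with any MPP class passed the threshold, and their log2 fold changes in MPP4 were -0.81 ± 0.07, -0.35 ± 0.07, -0.996 ± 0.071 and -1.04 ± 0.14.

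**Figure D5:**
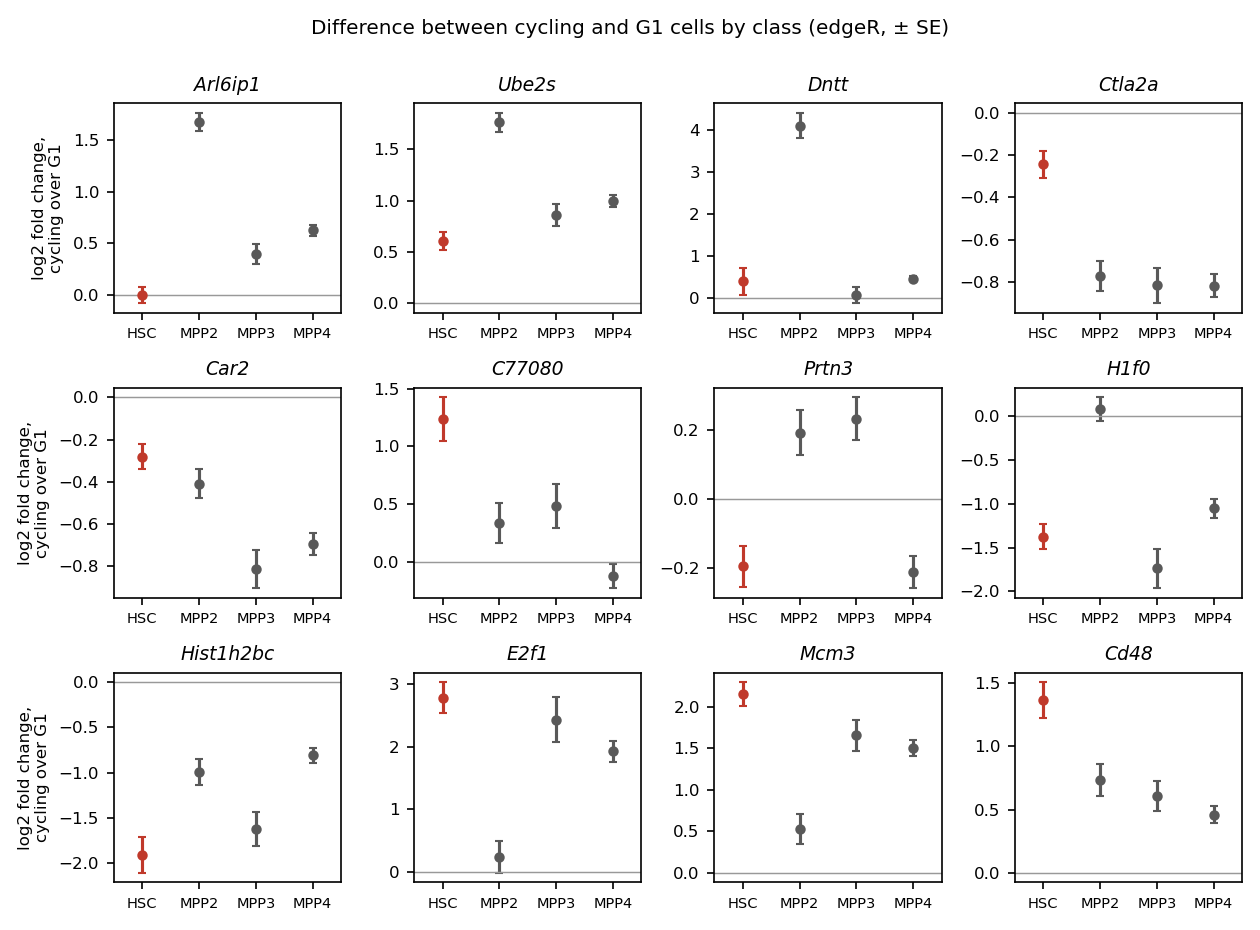
Log2 fold change of cycling over G1 cells (vertical axis, mean ± SE from 1 edgeR fit) in HSC (red), MPP2, MPP3 and MPP4 for 12 genes, with a line at 0. Arl6ip1 lies at 0.01 in HSC and 1.67 in MPP2, E2f1 at 2.78 and 0.24, and Cd48 is highest in HSC.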

How the data were processed

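Gene expression was measured by droplet single-cell RNA sequencing (10x Chromium GEM V3) in sorted LSK cells. The submitters' processing notes name Cell Ranger 7.0.1, R 4.2.2, Seurat 4.3.0 and the builds GRCm38 and mm10. The authors deposited UMI counts per gene and cell (32285 genes) with no normalization, and a cell table with class, cluster, phase, the percent of mitochondrial UMIs per cell and module, S and G2M scores; 11 columns of that table hold no value used here. Classes, clusters and phases were taken from the deposited table. Recomputed from the deposited scores, with a phase threshold of 0, 100% of phases were equal. No source used here gives the genes behind the authors' scores, and 103 mouse symbols from the standard Seurat lists were assumed to be the phase genes and left out of counts.

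UMIs were summed per library and side, normalised by TMM, and tested in R 4.3.3 with edgeR 4.0.16 (quasi-likelihood, Benjamini-Hochberg adjustment, filterByExpr, library as block). The paper's main methods state no test for this comparison. Sides of 1 library come from the same cells' preparation and are paired by construction; the deviations of same-numbered sides correlated by 0.355, 0.251 and 0.382. Total UMIs were 41220306, 12888352 and 30092379 in PBS libraries 1, 2 and 3, so PBS library 2 gives the least precise values. Intervals and limits cover counting error only. Phases were fitted as 3 sums per library, and classes in 1 fit with an interaction term where each side had at least 20 cells. AML log2 ratios used a prior count of 2. Scrublet, run in scanpy 1.11.5, called 7 of 12170 cells (0.0575%) doublets, and why so few were called was not tested. Its calls were not relied on, and its score was used only to compare the sides and to leave out the top 5%. On simulated counts for cycling against G1 (8610 genes, 50 changed genes per fold), the test recovered 62% of 1.5-fold, 94% of 2-fold and 100% of 3-fold and 4-fold changes. The changed genes were drawn only from genes above a set level. Every simulated gene had the same spread, the common one of the fit, and both sides of a library shared its library effect. These shares therefore do not cover genes of low level or of wider spread.

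The members, gene lists and tests were chosen with earlier results of these data known. Named genes were the 10 largest rises and falls with an adjusted p under 0.05, a mean log2 CPM of at least 5 and 1 direction in 3 libraries, up to 4 called members per direction and list with the lowest p (or up to 2 of the highest CPM where under 2 were called), the 4 largest rises and falls per phase comparison, and up to 3 per interaction. Alternatives were DESeq2 1.42.0, limma 3.58.1 (voom), other scaling and filters, no block, each library left out, thinning to 2000 UMIs, single clusters, boundary cells left out and equal cell numbers. Matching on HSC score, S cells alone and leaving out the cell with most hemoglobin UMIs were added after the data were seen. Some genes that the rule names are not reported here.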

Additional observations from a re-analysis of the deposited data

Results flagged for a closer look

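Some genes changed between G1 and cycling cells by a different amount in an MPP class than in HSC, by the interaction term of the 4-class fit. In MPP2 the difference exceeded that of HSC by 1.67 for Arl6ip1 (0.01 in HSC and 1.67 in MPP2 on the log2 scale), by 1.16 for Ube2s (0.61 and 1.77) and by 3.70 for Dntt, the terminal transferase of lymphoid progenitors (0.40 and 4.10). In MPP3 it differed by -0.57 for Ctla2a (-0.24 and -0.82), by 0.43 for Prtn3, which encodes proteinase 3 (-0.19 and 0.23), and by -0.53 for Car2, which encodes carbonic anhydrase 2 (-0.28 and -0.82). In MPP4 it differed by -0.57 for Ctla2a (-0.24 and -0.82), by 0.62 for Arl6ip1 (0.01 and 0.63) and by -1.36 for C77080 (1.24 and -0.12). Without PBS library 1 the MPP3 calls of Ctla2a (-0.23), Prtn3 (0.50) and Car2 (-0.38) were lost, and that of Prtn3 also without PBS library 3 (0.39).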

How the results depend on the processing

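The count of genes called between cycling and G1 cells, 1693, became 634 with DESeq2, 704 after thinning to 2000 UMIs, 257 in cluster 1 alone, 616 without cells near the class boundary, 967 with equal numbers of cells, 1078 with G1 cells matched on HSC score, and 856 to 1538 without 1 library. It stayed within 1.5 times with limma-voom (1714), library size alone (1696), no filter (1594), at least 10 UMIs (1383), sums by cluster (1632), cluster 0 alone (1493), no cells near the phase threshold (1501), no phase genes in the fit (1678) and S cells alone (1670). S against G1 (1313 genes) gave 426 with DESeq2, 501 thinned and 595 to 1013 without 1 library. G2M against G1 (236) gave 146, 27 and 60 to 148, and G2M against S (84) gave 53, 4 and 24 to 47. Interactions gave 77, 51 and 69 to 154 for MPP2 (175), 0, 1 and 1 to 5 for MPP3 (4), and 5, 0 and 8 to 30 for MPP4 (49), in the same order. The DESeq2 count of 0 stood beside 207 genes at an unadjusted p under 0.05, and the thinned count of 0 beside 467.

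Without the replicate block, which ignores that sides of a library are paired, 397 genes were called between cycling and G1, 423 between S and G1, 154 between G2M and G1 and 44 between G2M and S. For the interactions 0 genes were called in MPP2, MPP3 and MPP4, with 502, 205 and 219 at an unadjusted p under 0.05 by edgeR.

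Of named genes over all alternatives, 2701 values stayed on the same side of the threshold, 457 lost the call, 6 gained it and 7 with a call turned: Ighm -0.053, Cd52 -0.094 and Hspa4 0.011 without cells near the class boundary, Rb1 -0.35, Mycn 0.11 and Rps27 0.16 in cluster 1 alone, and Plac8 -0.031 after matching on HSC score. C1qb (-0.15 to 0.58) and Igkc (-0.49 to 0.94), not called in the main fit, also changed sign between alternatives. The 6 values that gained a call were all of Igkc, higher in cycling cells. They came without PBS library 1, without PBS library 2, with S cells alone, with no filter, with at least 10 UMIs and without the top doublet scores. The cause of these changes was not tested. Cluster 1 alone rests on PBS libraries 1 and 3, and cluster 2 alone could not be fitted, since no library had 5 cycling cells there. PBS library 2, with 24 cycling cells, and the G2M sums limit what low genes can show.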

Other observations

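The following lists are small, and their shares of called genes are to be read beside 11.5% higher and 7.73% lower over all genes tested. Over the alternatives the medians of all 3 changed sign (cholesterol synthesis -0.48 to 0.37, BCL2 family -0.20 to 0.25, p53 targets -0.59 to 0.19). Of 15 tested genes of cholesterol synthesis 2 were higher and 0 lower, with a median of 0.21: Fdps (0.64 ± 0.17, adjusted p = 0.0036 by edgeR) and Idi1 (0.62 ± 0.22), and their calls were lost without PBS library 1 (0.33 and 0.82) and that of Idi1 also without PBS library 2 (0.61) or 3 (0.55). Of 9 genes of the BCL2 family of apoptosis regulators, Bok was higher (2.94 ± 0.54) and Mcl1 lower (-0.37 ± 0.13), the latter not called without any 1 library (-0.27, -0.40 and -0.33), with a median of 0.13. Of 10 p53 target genes 1 was higher and 3 lower, with a median of -0.48. Sesn1, a stress-response gene, was at -0.55 ± 0.13 (adjusted p = 0.0012), while Trp53inp1 (-1.18 ± 0.41) lost its call without PBS library 1 (-1.59) or 3 (-0.80) and Aen (0.50 ± 0.19) without PBS library 1 (0.46) or 2 (0.42).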
